A study of Homo sapiens with 2 samples.

Results

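The miR-183 cluster, made of the hairpins mir-183, mir-96 and mir-182, was followed in small RNA sequencing of A375, a human cell line established from a melanoma. Its members were all rows of the deposited table whose precursor is the hairpin mir-183, mir-96 or mir-182. This gave 6 of 1546 rows, the 5p and the 3p arm of each of 3 hairpins, out of 1095 hairpins and 1497 mature names. The study concerns microRNAs (miRNAs) that act on the BRAF-X1 transcript. The libraries used here came from A375 cells seeded at 1000000 per dish, given DMSO, a solvent used as vehicle, after 24 h and collected 48 h later. There was 1 group of 2 replicates, which the labels call independent without naming separate cultures, so no condition was compared and the spread between the libraries may be technical. The libraries held 10816826 read assignments in replicate 1 and 15428446 in replicate 2. Values are RPM, reads per 1000000 read assignments, so 1 read was worth 0.0924 and 0.0648 RPM. The prefix hsa-, for human, is printed with the sequences and left out elsewhere.

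The cluster is transcribed as one primary RNA from which 3 hairpins are cut, and each hairpin yields a duplex with a 5p and a 3p arm. In most hairpins one arm, the guide, is kept in Argonaute proteins, while the other, the passenger, is degraded. The cluster is known from sensory organs, where it is abundant in photoreceptors, hair cells of the inner ear and sensory neurons, and it is often raised in cancers. In melanoma miR-182 has been described as raised and as a repressor of FOXO3, a transcription factor that restrains growth, and of MITF, the master regulator of the melanocyte lineage.

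The mature sequences of the 6 members are shown to let the arms be compared base by base, and the sequence of miR-1271-5p is added as the other listed miRNA with the seed of miR-96-5p. Sequences are from the RefSeq table (GRCh38.p14) and run 5′ to 3′. Capitals mark the seed, bases 2 to 8, the part that pairs with targets.
hsa-miR-183-5p: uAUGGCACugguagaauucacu
hsa-miR-96-5p: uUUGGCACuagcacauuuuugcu
hsa-miR-182-5p: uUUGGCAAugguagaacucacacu
hsa-miR-183-3p: gUGAAUUAccgaagggccauaa
hsa-miR-96-3p: aAUCAUGUgcagugccaauaug
hsa-miR-182-3p: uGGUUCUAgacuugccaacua
hsa-miR-1271-5p: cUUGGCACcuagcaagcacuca

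Positions are counted from 1 at the 5′ end of the miRNA. Within the first 8 bases, miR-182-5p and miR-96-5p differed by A8C alone, the base of miR-182-5p given first. MiR-96-5p and miR-183-5p differed there by U2A alone. MiR-182-5p and miR-183-5p differed by both, U2A and A8C. The 3 guides thus carry 3 different seeds of bases 2 to 8, but miR-182-5p and miR-96-5p share bases 2 to 7. Over the whole length the closest pair was another. MiR-183-5p and miR-182-5p had the same base at 18 of 22 positions and shared the run ugguagaa, bases 9 to 16 of both. MiR-96-5p matched miR-183-5p at 13 of 22 positions and miR-182-5p at 12 of 23. Compared in the same way, the 3p arms matched each other at 4 to 7 positions, and their longest common run was ugccaa, bases 13 to 18 of both miR-96-3p and miR-182-3p. How many mismatches the authors' assignment of reads allowed is not given in the sources used here, and passing of reads between miR-182-5p and miR-183-5p was not tested.

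In GRCh38 with the GENCODE 29 annotation, all 3 hairpins lie on the minus strand of chromosome 7. MIR183, the first in the direction of transcription, spans chr7:129774905-129775014, MIR96 chr7:129774692-129774769 and MIR182 chr7:129770383-129770492. MIR183 and MIR96 are 135 bases apart and MIR96 and MIR182 4199 bases apart, and the whole cluster spans 4632 bases. No other annotated gene overlapped this span, so the hairpins are neither exonic nor intronic in that annotation. The nearest genes were AC084864.1, a long noncoding RNA gene on the same strand 8355 bases upstream, and the coding gene NRF1 on the plus strand 13300 bases away on the other side. The build behind the deposited values is not given in the sources used here.

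The cluster was expressed almost entirely as miR-182-5p. MiR-182-5p had 7037 RPM in the first library and 7042 RPM in the second, replicates 1 and 2, with a mean of 7040 ± 3.20 RPM (SD, n = 2 here and below). The libraries were nearly equal, and miR-182-5p ranked 25 of 1497 mature names by its mean. MiR-183-5p stood at 415 and 649 RPM, with a mean of 532 ± 166 RPM and rank 82, so replicate 2 was the higher library. MiR-96-5p stood at 44.7 and 57.6 RPM, with a mean of 51.1 ± 9.12 RPM and rank 210, again higher in replicate 2. MiR-182-5p made up 93.8% and 90.8% of the RPM of the cluster, miR-183-5p 5.52% and 8.37%, and miR-96-5p 0.595% and 0.742%. The 6 members together held 0.968% and 0.991% of the RPM, counting each mature name once at its highest hairpin copy.

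The order of the guides was the same in both libraries and did not follow the order of the hairpins along the primary transcript, where mir-96 lies in the middle. MiR-182-5p was 17.0-fold above miR-183-5p in replicate 1 and 10.8-fold in replicate 2. MiR-183-5p was 9.28-fold and 11.3-fold above miR-96-5p. These steps were far wider than the spread between libraries, since the lower library of miR-182-5p stood 10.8-fold above the higher library of miR-183-5p, and the lower library of miR-183-5p 7.20-fold above the higher library of miR-96-5p. No neighbours in this order overlapped. With 2 values against 2, an exact two-sided permutation test cannot go below 0.333, so no test of the order was made. Ligation and amplification favour some sequences over others, and RPM of different miRNAs are therefore not exact ratios of molecules.

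The 3p arms were scarce and stood in another order. MiR-183-3p was the highest at 7.67 and 8.62 RPM (83 and 133 reads), with a mean of 8.15 ± 0.670 RPM. MiR-182-3p stood at 1.85 and 1.56 RPM (20 and 24 reads), a mean of 1.70 ± 0.207 RPM. MiR-96-3p had 4 and 5 reads, 0.370 and 0.324 RPM. In both libraries the order was miR-183-3p, miR-182-3p, miR-96-3p, with no overlap between neighbours: miR-183-3p was 4.15-fold and 5.54-fold above miR-182-3p, whereas among the 5p arms miR-182 was far above miR-183. Of the 6 members, the 3 guides reached 10 RPM in both libraries and none of the 3 passengers did. Of all 1497 mature names, 22.4% reached that level.

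**Figure D1:**
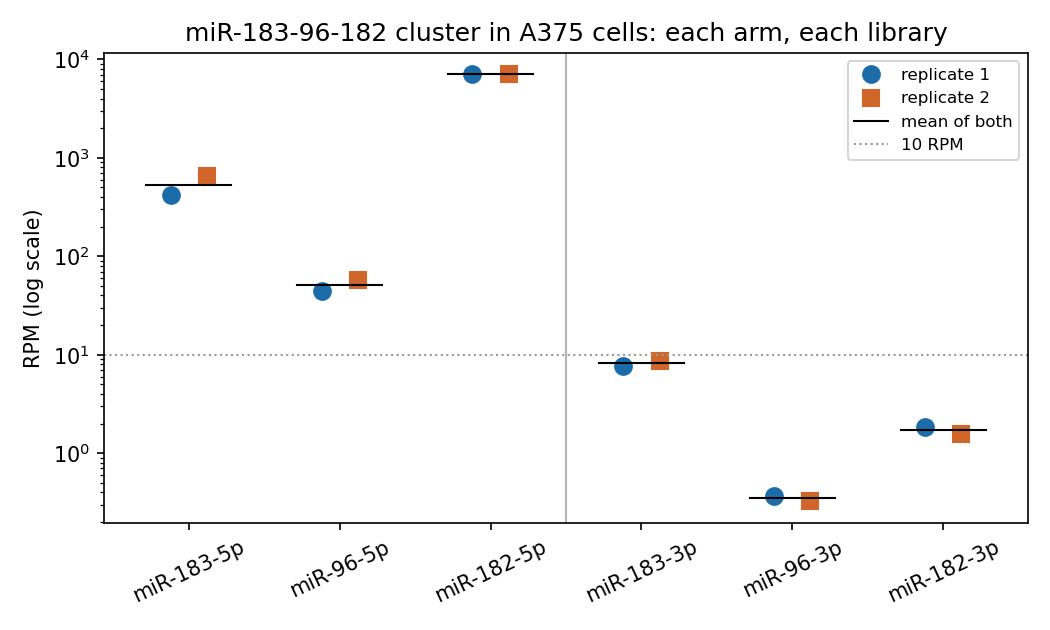
RPM of the 6 members on a log axis, with the 5p arms on the left and the 3p arms on the right, each in the order of the hairpins along the primary transcript. Circles are replicate 1, squares replicate 2, and bars their mean. MiR-182-5p is the highest 5p arm at 7040 RPM, while among the 3p arms miR-183-3p is the highest at 8.15 RPM.

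Each hairpin favoured its 5p arm, but to different degrees. The 3p arm made up 0.0263% of the reads of mir-182 in replicate 1 (exact 95% binomial interval 0.0160% to 0.0406%) and 0.0221% in replicate 2 (0.0142% to 0.0329%). For mir-183 the 3p share was 1.82% (1.45% to 2.25%) and 1.31% (1.10% to 1.55%). For mir-96 it was 0.821% (0.224% to 2.09%) and 0.560% (0.182% to 1.30%). The intervals of mir-182 lay below those of both other hairpins in both libraries, while mir-96, with few 3p reads, overlapped mir-183. The intervals of mir-183 overlapped between its libraries. PCR copies are not independent molecules, so the intervals describe the error of counting and no more.

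The hairpins of MIR182 and MIR96 are printed to show where the annotated arms lie, since the deposited values give no read positions. The hairpin sequences are taken from the same RefSeq table, with both mature arms in capitals, the 5p arm first.
MIR182: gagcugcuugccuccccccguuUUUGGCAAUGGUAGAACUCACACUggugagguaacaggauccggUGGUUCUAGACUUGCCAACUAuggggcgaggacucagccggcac
MIR96: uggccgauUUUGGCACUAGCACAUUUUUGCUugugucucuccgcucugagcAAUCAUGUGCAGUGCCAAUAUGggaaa

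As a log2 ratio of 5p over 3p on RPM + 1, mir-182 stood at 11.27 in replicate 1 and 11.43 in replicate 2. Among 137 hairpins with both arms listed and 100 RPM or more in sum, it was number 3 from the most one-sided, after mir-26a-1 (11.83 ± 0.02), whose 5p arm also belongs to another hairpin, and mir-186 (11.42 ± 0.78). The values of mir-182 overlapped those of 4 other hairpins, numbers 2, 4, 5 and 6. Beside mir-186 these were mir-192 (11.19 and 11.32), mir-10b (11.31 and 11.03) and mir-16-1 (10.81 and 11.39), so the order among numbers 2 to 6 was not resolved. The 5p arm of mir-16-1 also belongs to another hairpin. With 10 RPM added in place of 1 RPM mir-182 was number 10. Mir-183 stood at 5.58 and 6.08, number 63 of the 137, close to the median size of 5.55. Mir-96 stood at 5.06 and 5.47, but its summed level was under 100 RPM and it has no place in that ranking. Without the added 1 RPM the 5p arm of mir-96 was 121-fold and 178-fold above its 3p arm, that of mir-183 54.0-fold and 75.3-fold, and that of mir-182 3806-fold and 4527-fold. The 2 members among the 137 hairpins, mir-182 and mir-183, were both over 2-fold higher in the 5p arm in each library, as did 58.4% of all 137, so the side itself is common.

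**Figure D2:**
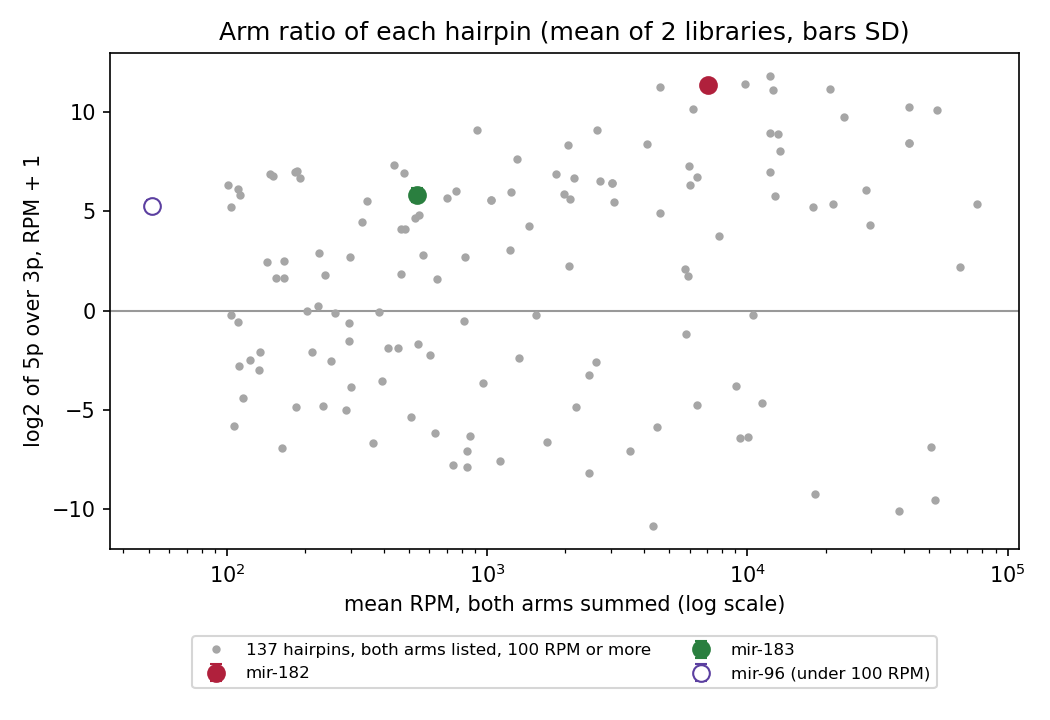
Log2 ratio of the 5p to the 3p arm (RPM + 1, mean of 2 libraries, bars SD) against the summed mean RPM of both arms on a log axis, 1 grey point per hairpin. Mir-182 lies near the top, mir-183 at 5.83 is near the median size of 5.55 over all 137 hairpins, and mir-96, drawn open, lies below the 100 RPM minimum.

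With 1 group, the difference between its libraries gives all that is known of the error. MiR-183-5p was 1.57-fold higher in replicate 2, a difference of 0.65 in log2(RPM + 1). In the same cluster miR-182-5p differed by 0.0009 and miR-96-5p by 0.36. The median size of this difference was 0.25 over the 346 miRNAs whose mean reached 10 RPM. In those values miR-182-5p had the smallest difference of all 346 and miR-183-5p was exceeded by 20. Among the 50 miRNAs within 25 ranks of miR-183-5p none differed more, a window chosen after the values were seen. MiR-96-5p was exceeded by 96 of all 346, and by 14 of the 50 around it.

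The place of miR-182-5p depends on the scaling. The median miRNA was lower in replicate 2, and rescaling the libraries to equal medians over the expressed miRNAs moved all differences up by 0.10. The difference of miR-182-5p was then 0.10, and 79 of the 346 differed less. That of miR-183-5p became 0.75, exceeded by 15, and that of miR-96-5p 0.46, exceeded by 56. Of the 50 miRNAs around each in rank, 0 then exceeded miR-183-5p and 7 exceeded miR-96-5p. Both stayed higher in replicate 2 under either scaling.

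A two-sided Fisher's exact test set each miRNA's reads against the remaining reads of the libraries, with Benjamini-Hochberg adjustment over 869 miRNAs. It compares these libraries and covers counting error only. Of the 5 members tested none passed at an adjusted p under 0.05 with a fold above 2, a rule that 4.6% of all tested miRNAs passed. By the adjusted p alone, miR-183-5p (adjusted p = 2.5e-143, exact test, 4484 and 10018 reads) and miR-96-5p (adjusted p = 3.1e-05, exact test, 483 and 888 reads) differed, and 34.5% of all tested miRNAs did so. Among those whose mean reached 10 RPM the share was 69.7%, so passing by p alone was common. MiR-182-5p did not pass (adjusted p = 0.97, exact test), but with totals scaled by the median ratio it did (adjusted p = 1.8e-52, exact test) at a fold near 1. The 3p arms tested did not pass, with adjusted p of 0.65 for miR-183-3p and 0.81 for miR-182-3p in the same exact test. MiR-96-3p had too few reads to be tested.

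**Figure D3:**
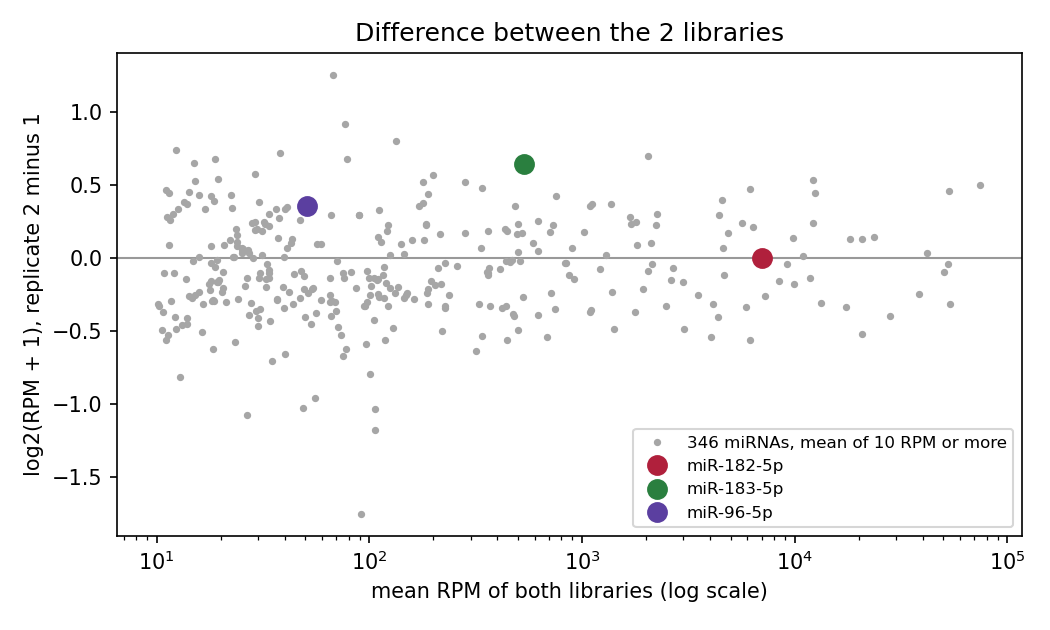
Difference in log2(RPM + 1) between the libraries, replicate 2 minus replicate 1, against mean RPM on a log axis, for the 346 miRNAs whose mean reached 10 RPM. MiR-182-5p lies on the zero line, while miR-183-5p at 0.65 is at the upper edge of the miRNAs of like level and miR-96-5p is at 0.36.

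The ratio between members of the cluster therefore moved between the libraries. MiR-182-5p over miR-183-5p was 1.57-fold larger in replicate 1 than in replicate 2. Among 94 pairs of hairpins from 36 clusters, each hairpin at 10 RPM or more by its higher arm, this was number 8 by size, where the median pair moved 1.22-fold. The ratio of miR-182-5p to miR-96-5p moved 1.29-fold, number 33, and that of miR-183-5p to miR-96-5p 1.22-fold, number 48. This ranking, added after the values were seen, is a description of these libraries, and a ratio within a library is not touched by scaling. MiR-183-3p, from the same hairpin as miR-183-5p, was 1.12-fold higher in replicate 2.

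The span between the highest and lowest hairpin of the cluster was 158-fold in replicate 1 and 122-fold in replicate 2. Hairpins were chained into clusters where they lay on the same strand within 10 kb of each other. Among 27 clusters with 3 or more hairpins, the miR-183 cluster was number 8 by span, and the median span was 34.8-fold. The clusters next to it were mir-506, mir-507 and mir-508 at 172-fold and mir-514b with 2 mir-509 hairpins at 120-fold. Of the 7 wider spans, 5 had a lowest member below 1 RPM, which the lowest member here was not. In 3 of the 7 the lowest member was at 0 in one library, so their span over the means rests on the other library. The widest was of that kind: let-7a-5p stood 111724-fold above miR-4763-5p in replicate 1, and miR-4763-5p was at 0 in replicate 2. The narrowest span was within the mir-3689 hairpins, which had 1 to 3 reads each in a library, too few for a fold to be given.

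With hairpins under 10 RPM left out, 11 clusters remained and the miR-183 cluster was number 3, against a median span of 16.6-fold. Above it stood the miR-17-92 cluster at 284-fold and the part of the X-linked miR-106a-363 cluster at that level at 3707-fold, both led by miR-92a-3p, whose reads are assigned to a hairpin in each. Next below it was mir-23b, mir-27b and mir-24-1 at 68.8-fold, and the narrowest was the mir-424 and mir-450 cluster at 5.01-fold. Each of the 3 guides of the miR-183 cluster came from 1 hairpin only, so its span does not rest on shared reads of this kind.

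**Figure D4:**
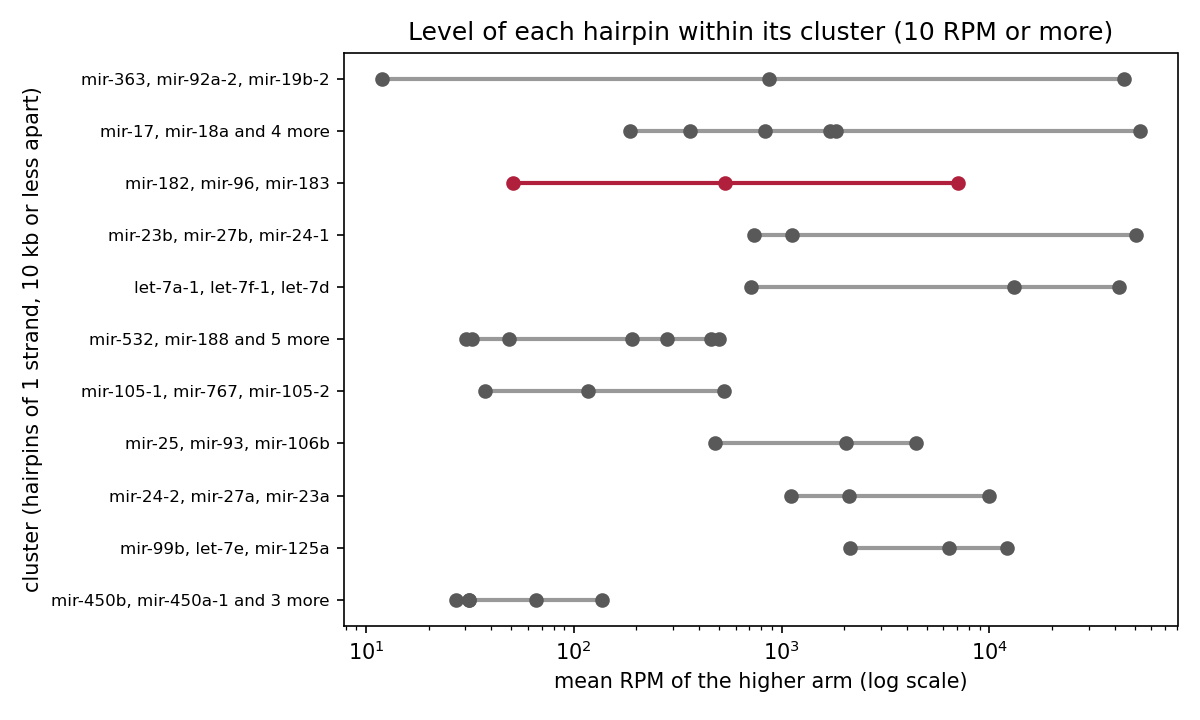
Mean RPM of the higher arm of each hairpin on a log axis, for the 11 clusters with 3 or more hairpins at 10 RPM or more, ordered by span. The miR-183 cluster, in red, has its members spread from 51.1 to 7040 RPM, a 138-fold span that is the third widest shown.

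By seed, nearly all of the signal belonged to miR-182-5p. Sequences were found for 1317 of 1497 mature names, which held 89.8% and 90.0% of the RPM. The seed of miR-182-5p was carried by no other of these names and ranked number 17 of 1095 seeds, with 0.907% and 0.900% of the RPM. The seed of miR-183-5p was also its own, number 48, with 0.0534% and 0.0830%. The seed of miR-96-5p was shared with miR-1271-5p, a miRNA encoded on chromosome 5, which stood at 3.24 and 7.32 RPM (35 and 113 reads). MiR-96-5p supplied 93.2% and 88.7% of the RPM of that seed. Over bases 2 to 7, which miR-182-5p, miR-96-5p and miR-1271-5p have in common, miR-182-5p supplied 99.3% and 99.1%. The seed of miR-182-3p was its own over bases 2 to 8 and shared over bases 2 to 7 with miR-152-5p at 39.7 ± 6.79 RPM, while miR-96-3p shared bases 2 to 7 with miR-2681-3p, which had 4 reads and 1 read.

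Matches to the seeds were searched on the transcript strand in the longest 3′ untranslated region (UTR) of each of 19092 coding genes of GENCODE 29. The motifs were TTGCCAA for miR-182-5p, GTGCCAA for miR-96-5p and GTGCCAT for miR-183-5p, and the first 2 share the letters TGCCAA. Over all these UTRs 13.6%, 9.10% and 10.7% held the motif. FOXO3 held the motif of miR-182-5p at 2 places, that of miR-96-5p at 1 and that of miR-183-5p at 0, and MITF had the same counts. Of UTRs within 20% of the length of that of FOXO3, 35.2% held the motif of miR-182-5p, and of those near the length of MITF 25.2% did. FOXO1, a relative of FOXO3, held the motifs of miR-96-5p and miR-183-5p at 2 places each and that of miR-182-5p at 0. Each match to miR-96-5p, those in FOXO1 included, also holds TGCCAA, the letters that match bases 2 to 7 of miR-182-5p. The 0 for FOXO1 therefore covers the motif TTGCCAA only, and matches to the shorter seed were not counted. BRAF, the gene of the study, has a longest UTR of 7167 bases in that annotation. It held 1 match to miR-182-5p and 0 to the other 2, and 47.9% of UTRs near that length held the motif of miR-182-5p. The UTR was chosen by length alone, and whether it belongs to the BRAF-X1 transcript was not checked. The search covered a list of 11 genes, most of them described as targets and so not an independent sample. The genes on it not yet named were CYLD, ADCY6, RAC1, EZR, EGR1, ITGB1 and IRS1. Of the 11, 7 held the motif of miR-182-5p and 6 each those of miR-96-5p and miR-183-5p. Among UTRs near the length of each listed gene, 9.40% (EZR) to 47.9% (BRAF) held the motif of miR-182-5p. Between the same genes this share ran from 6.88% to 31.4% for miR-96-5p and from 7.21% to 38.4% for miR-183-5p. Whether the list held more matches than UTRs of like length was not tested. A match shows these letters and not that the site is used.

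The search found 26 matches in the 11 genes, 11 of them in FOXO3, MITF, BRAF and FOXO1. Of these, 5 are printed as examples for these 4 genes, the first along the UTR where there were 2, and the matches of FOXO3 and MITF to miR-96-5p are left out. The motif is in capitals, with 15 bases before it and the base after it, in GRCh38.
FOXO3 for miR-182-5p, plus strand, chr6:108679849-108679871: tacagagaaaaccctTTGCCAAa
MITF for miR-182-5p, plus strand, chr3:69967712-69967734: ttatttatttcttttTTGCCAAa
BRAF for miR-182-5p, minus strand, chr7:140722444-140722466: aaataccttgacaatTTGCCAAa
FOXO1 for miR-96-5p, minus strand, chr13:40558778-40558800: tttcattacaatgaaGTGCCAAa
FOXO1 for miR-183-5p, minus strand, chr13:40558806-40558828: ctgtagataaggactGTGCCATt

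The miRNAs most like each guide, by distance in log2(RPM + 1) over the 2 libraries, were of the same level and no more is said of them. They were miR-30e-5p (7230 ± 928 RPM) and miR-125a-5p (6374 ± 669 RPM) for miR-182-5p, miR-15b-5p (484 ± 84.1 RPM) and miR-500a-3p (501 ± 58.2 RPM) for miR-183-5p, and miR-1301-3p (47.3 ± 6.24 RPM) and miR-1269a (56.9 ± 2.67 RPM) for miR-96-5p. None of these 6 has bases 2 to 7 of its guide.

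The listed hairpins near the cluster on chromosome 7 all stood below miR-182-5p. Of 7 other listed hairpins within 10 Mb, 4 reached 10 RPM in both libraries by their higher arm. Of all mature names 22.4% did, a share per name and not per hairpin, so it is not a like measure. MiR-29a-3p, 1.10 Mb away, stood at 1686 ± 235 RPM, above miR-183-5p and below miR-182-5p. MiR-592 stood at 123 ± 19.8 RPM, miR-29b-3p at 104 ± 7.34 RPM, a value whose reads are shared with a second hairpin on another chromosome, and miR-335-3p, 0.721 Mb away, at 37.9 ± 13.5 RPM. MiR-129-5p, the next by level, stood at 3.06 ± 0.383 RPM.

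A pair of miRNA lists gives the setting of the guides. Of 11 sensory and neural miRNAs, 10 were listed and 8 reached 10 RPM in both libraries, against 22.4% of all names. The 3 guides are among the 8, and of the other 7 listed names 5 reached that level. MiR-124-3p, a neuronal miRNA on the list, was the name without a value in the deposited data. MiR-181a-5p was the highest at 28068 ± 5443 RPM, and miR-182-5p was the next. MiR-204-5p, a miRNA of the retina and of pigment cells, stood at 2632 ± 190 RPM, miR-9-5p, a neural miRNA, at 1018 ± 91.0 RPM, and miR-184, a miRNA of the lens and cornea, at 0.125 ± 0.0849 RPM. Of 17 miRNAs described as raised in melanoma, a list that holds the 3 guides, 15 reached 10 RPM, and 12 of the 14 others did. MiR-182-5p was number 6 on this list by level. Above it stood miR-21-5p (53854 RPM), miR-10b-5p (20818 RPM), miR-30d-5p (17351 RPM), miR-222-3p (9244 ± 187 RPM) and miR-221-3p (8458 ± 658 RPM). The next below it was miR-146a-5p (2039 ± 690 RPM).

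The cluster is also abundant in many epithelia, so epithelial miRNAs were looked at beside it. The 7 epithelial markers, miR-200a-3p, miR-200b-3p, miR-200c-3p, miR-141-3p, miR-429, miR-203a-3p and miR-205-5p, summed to 54.4 and 70.8 RPM, and 2 reached 10 RPM in both libraries, miR-200b-3p at 28.8 ± 3.66 RPM and miR-141-3p at 19.4 ± 5.36 RPM. This was 28.6% of the list, against 22.4% of all names, and the median marker stood at 3.69 RPM, against 0.588 RPM over all names. No epithelial marker was at 0 in either library, and miR-205-5p was the lowest at 0.0786 ± 0.0195 RPM. Of the 9 melanocyte and melanoma markers 5 reached 10 RPM, which was 55.6%. They were miR-21-5p at 53854 ± 8314 RPM and miR-222-3p, miR-221-3p, miR-204-5p and miR-146a-5p at the levels given above. The other 4 stood under 2 RPM, with miR-155-5p at 1.18 ± 0.293 RPM, miR-214-3p at 0.125 ± 0.0849 RPM, miR-211-5p at 0.203 ± 0.104 RPM and miR-137 at 0.472 ± 0.117 RPM. Of the 9, all but miR-204-5p, miR-211-5p and miR-137 are also on the list of miRNAs described as raised in melanoma. These lists are therefore not independent. Of 7 blood markers 5 were listed, without miR-223-3p and miR-144-3p, and 1 reached 10 RPM, miR-486-5p. MiR-451a was at 0 in replicate 2. The blood markers summed to 176 and 205 RPM, of which miR-486-5p alone held 171 and 200 RPM. Of 6 neuronal markers 5 were listed, without miR-124-3p, and 4 reached 10 RPM. The listed ones summed to 2687 and 2604 RPM. The endothelial and liver markers, 2 of 3 at that level, summed to 186 and 266 RPM. Those at that level were miR-126-5p and miR-126-3p, the arms of 1 hairpin. The liver marker miR-122-5p stood at 0.398 ± 0.171 RPM. Of 4 muscle markers 2 were listed, without miR-1-3p and miR-206, and 0 reached that level. Their sum was 1.85 and 1.10 RPM.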

How the data were processed

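Small RNA of 2 A375 libraries was measured as RPM, deposited with decimal commas, 1 value per hairpin, mature miRNA and library. CASAVA 1.8 and cutadapt 1.2.1 are named in the submitters' processing notes. Not given in the sources used here are the aligner, the miRNA annotation release and the genome build. Each column summed to 1000000, and 100% of values above 0 were whole multiples of the smallest within 0.01 reads, so read assignments were recovered. Columns were matched by the sample descriptions, and 0 others held values. Each mature name was counted once, at its highest hairpin copy, which left 77.6% and 78.3% of the total for shares. Logarithms used a pseudocount of 1 RPM.

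Fisher's exact test (scipy 1.17.1) ran on miRNAs with at least 10 reads in sum, with folds after adding 0.5 reads. It was also run on simulated counts with planted changes. That simulation held counting error only, so it does not show how the test behaves where libraries differ by more than that. No read count model with replicates was possible with 1 group. Of 1095 hairpins, 1094 were matched by name to GENCODE 29.

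The named miRNAs were the members, seed sharers, the 2 nearest in level to each guide, clusters at the extremes and next in span, the 5 highest hairpins within 10 Mb, the 3 hairpins of 1000 RPM or more with the largest arm ratio, and the listed markers, with examples from the lists picked after their values were seen. Members and lists were chosen with earlier results of these data known. Alternatives were other pseudocounts, minima, fold limits, scalings, summed copies, chain lengths, seed lengths and leaving out each replicate.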

Additional observations from a re-analysis of the deposited data

How the results depend on the processing

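Of 55 alternative values that keep both libraries, 41 moved by no more than their tolerance, 14 moved further and 0 reversed. Among the 41 are 6 levels with copies summed, which could not move because each member comes from 1 hairpin. Tolerances were 1 SD, 1.5 times for a count or a rank and the median difference of all miRNAs for log2 differences. The 16 values with a replicate left out are not counted, since with 2 libraries each mean then takes the value of a single library. The mean of miR-182-5p, whose SD was 3.20 RPM, was 7044 RPM with scaling by the median ratio and 7610.0 RPM without the most abundant miRNA. Leaving out each replicate gave 7037 to 7042 RPM for miR-182-5p, 415 to 649 for miR-183-5p and 44.7 to 57.6 for miR-96-5p, a span of 122-fold to 158-fold within the cluster and an arm ratio of mir-182 of 11.27 to 11.43. That arm ratio was 11.94 with a pseudocount of 0.1 RPM and 9.23 with 10 RPM. The seed group of miR-96-5p held 0.911% over bases 2 to 7, where it includes miR-182-5p, and 0.00564% with copies summed, while that of miR-182-5p held 0.911% and 0.704%. The library test called 40 miRNAs, 14 with at least 100 reads in sum, 81 with a fold above 1.5, among them miR-183-5p, and 16 with a fold above 3. No other alternative called a member. By span the cluster was number 8 of 27, number 10 of 33 with chaining at 50 kb, and number 3 of 11 with hairpins under 10 RPM left out. The 335 miRNAs at 10 RPM in both libraries became 593 at 1 RPM and 161 at 100 RPM. Summing copies in the library test was chosen after seeing the data and gave 40 calls. Chaining hairpins at 3 kb could not be used, because MIR182 lies 4199 bases from MIR96. No paired analysis was possible because there was 1 group. Depth limits the 3p arms of mir-96 and mir-182, which rest on 4 to 24 reads.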
